A study of Drosophila melanogaster with 3 samples.

Results

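The regions described here ranked just below the peaks that the authors kept as reproducible. The experiment was chromatin immunoprecipitation sequencing (ChIP-seq) on Achaete (Ac) in Drosophila melanogaster embryos. They were chosen by the authors' signal value: in the list of 30000 regions called on all 3 replicates together (the pooled list), sorted by falling signal, ranks 2757 to 6000 were kept, which gave 3244 of the 30000 regions. All the regions above them were exactly the authors' optimal list, the set that passed a test of reproducibility between replicates. The transgenic line expressed Ac fused at its C terminus to green fluorescent protein, which was immunoprecipitated with an anti-GFP antibody. Whole embryos of both sexes, 0 to 8 hours old, gave 3 biological replicates of this 1 group, and there was no second condition. Every cell type of the embryo contributed to each library. Since no label tells if each replicate came from its own embryo collection, SDs over replicates may measure technical spread only. The p-values come from counts over regions and measure no spread between replicates. The lists hold no read counts, so the depth of each library is unknown. The signal value has no stated scale and served here only to rank regions within a list.

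Achaete is a proneural transcription factor of the basic helix-loop-helix (bHLH) class, encoded in the achaete-scute complex on the X chromosome. It pairs with Daughterless, binds short DNA words known as E-boxes, and gives ectodermal cells the capacity to become neuroblasts or sensory organ precursors. Its known targets include genes of the Notch pathway, which restricts the neural fate to single cells by lateral inhibition. The E-box searched for as its preferred site was GCAGCTG or GCAGGTG on either strand, written below as the Ac/Sc-Da E-box, after Achaete or Scute with Daughterless.

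To show what these regions look like, sequences are given for those that held this E-box at most 100 bp from the summit (the position of highest signal in a region) and had a summit within 150 bp in the first 6000 regions of all 3 replicates' own lists. There were 28 such regions, and 7 of the 10 highest-ranked are printed from the Release 6 (dm6) genome, plus strand, as the bases at most 100 bp from the summit, shortened where a transcript's untranslated bases begin. In the Adk2 region the summit itself lay in the bases left out. Capitals mark the E-box. The gene in each label is the one with the nearest annotated start, and an intron may belong to another gene.
C1GalTA intron, chr2L:8950002-8950202: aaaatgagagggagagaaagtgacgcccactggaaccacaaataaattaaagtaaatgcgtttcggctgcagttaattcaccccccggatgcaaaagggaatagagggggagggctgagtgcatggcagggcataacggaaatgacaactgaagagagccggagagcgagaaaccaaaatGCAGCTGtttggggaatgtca
Dad intron, chr3R:17056911-17057111: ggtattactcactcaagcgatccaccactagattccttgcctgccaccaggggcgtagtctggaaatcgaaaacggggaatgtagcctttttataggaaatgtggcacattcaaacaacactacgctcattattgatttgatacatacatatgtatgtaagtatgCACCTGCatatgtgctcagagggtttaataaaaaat
intergenic, nearest start lncRNA:CR45303, chr2L:14500538-14500738: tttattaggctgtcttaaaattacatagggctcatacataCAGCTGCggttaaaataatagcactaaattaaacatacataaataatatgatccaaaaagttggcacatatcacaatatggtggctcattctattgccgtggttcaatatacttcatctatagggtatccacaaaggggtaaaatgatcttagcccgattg
Adk2 promoter, chr3L:13022689-13022766: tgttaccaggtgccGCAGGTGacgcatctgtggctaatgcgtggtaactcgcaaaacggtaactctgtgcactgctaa
CG32639 intron, chrX:13227763-13227963: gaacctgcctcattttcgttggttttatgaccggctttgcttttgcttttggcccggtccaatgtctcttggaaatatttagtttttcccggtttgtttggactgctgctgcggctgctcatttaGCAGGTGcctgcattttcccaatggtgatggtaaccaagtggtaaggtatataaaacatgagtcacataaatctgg
CG17786 promoter, chr3R:24218719-24218878: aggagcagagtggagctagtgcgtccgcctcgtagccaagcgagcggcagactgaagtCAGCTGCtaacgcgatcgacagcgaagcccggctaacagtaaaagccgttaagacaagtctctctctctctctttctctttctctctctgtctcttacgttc
intergenic, nearest start CG15429, chr2L:4352027-4352227: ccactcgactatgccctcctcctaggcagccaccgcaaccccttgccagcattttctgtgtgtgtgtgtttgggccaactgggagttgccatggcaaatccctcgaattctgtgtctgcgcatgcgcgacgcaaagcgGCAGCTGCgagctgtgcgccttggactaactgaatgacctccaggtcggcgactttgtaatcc

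These 7 regions had pooled ranks from 2797 to 3058, and in each of them the E-box matches merged into 1 site. The C1GalTA region was intronic, with its summit 1114 bp from the start of this glycosyltransferase gene. It ranked 4786, 2704 and 3213 in replicates 1, 2 and 3. The Dad region was also intronic, 2114 bp from the start of this gene for an inhibitory Smad, and ranked 3082, 3108 and 3837. The CG15429 site, 848 bp from the nearest annotated start, ranked 5479, 3505 and 4676. Across the whole pooled list, 11.1% of regions held this E-box within 100 bp of the summit.

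The other words that stood furthest above their flanks at these regions were promoter words: DRE (TATCGATA), the site of the factor DREF, and the motif of M1BP (GGTCACACT). For each of them 1 region with support in the first 6000 of all 3 replicates is printed with the same limits and with the word in capitals; the summit of the CG7879 region lay in the bases left out.
CG3337 promoter, DRE, chr3R:21223585-21223703: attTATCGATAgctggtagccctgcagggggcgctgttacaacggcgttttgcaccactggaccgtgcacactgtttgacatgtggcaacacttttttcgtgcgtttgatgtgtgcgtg
CG7879 promoter, M1BP motif, chr3L:1568609-1568662: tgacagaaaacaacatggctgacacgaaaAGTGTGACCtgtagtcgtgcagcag

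The DRE region was 42 bp from the start of CG3337 and ranked 3098, 2929 and 2860 in the 3 replicates. The M1BP region was 46 bp from the start of CG7879 and ranked 3268, 5507 and 5349. DRE was found within 100 bp of the summit in 1.05% of all pooled regions and the M1BP motif in 0.653%.

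The signal that chose the regions fell from 120.73 at rank 2757, in the promoter of the forkhead gene croc, to 75.14 at rank 6000, in an intron near corn. The region just above had a signal of 120.77 and the one just below 75.14, so neither edge of the set coincided with a gap in signal. The authors' q values ran from 0.000818 to 0.0231: 2184 regions (67.3%) had a q value of at most 0.01, and all 3244 had one of at most 0.05. Of the next 3244 regions of the pooled list, called the next ranks here, 0 reached 0.01 and 1511 reached 0.05. Almost every region, 3191 or 98.4%, was listed with the same width of 390 bp, against 1493 (54.2%) of the optimal peaks. These values restate the choice of the regions and carry no test.

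Replicate support was weaker than for the optimal list and came unequally from the 3 libraries. A summit within 150 bp was present in the full list of 30000 regions of replicate 1 for 67.9% of the regions, of replicate 2 for 95.3% and of replicate 3 for 80.7% (mean 81.3% ± 13.7, SD, n = 3). The mean was 96.5% ± 2.82 (SD, n = 3) for the optimal peaks and 66.0% ± 19.1 (SD, n = 3) for the next ranks. In all 3 sets the order of the replicates was the same, with replicate 2 highest and replicate 1 lowest. In their own ranks 2757 to 6000 the replicates also differed, and values that rest on replicate 1 are given beside the results below. Since the pooled list was made from the same 3 libraries, these shares describe the lists and are not a test.

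Within the first 6000 regions of each replicate, 163 of the 3244 regions were found in all 3 replicates, 1201 in 2, 1574 in 1 and 306 in none. Of those found in 1 replicate, 379 were in replicate 1, 810 in replicate 2 and 385 in replicate 3. Matching summits had median ranks of 5564, 4940 and 5823 in replicates 1, 2 and 3. A region here could therefore rank high in 1 library: taking from each replicate's list as many top regions as the optimal list holds (its top ranks), 1090 regions were among those of 1 replicate, 107 of 2 replicates and 5 of all 3.

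**Figure D1:**
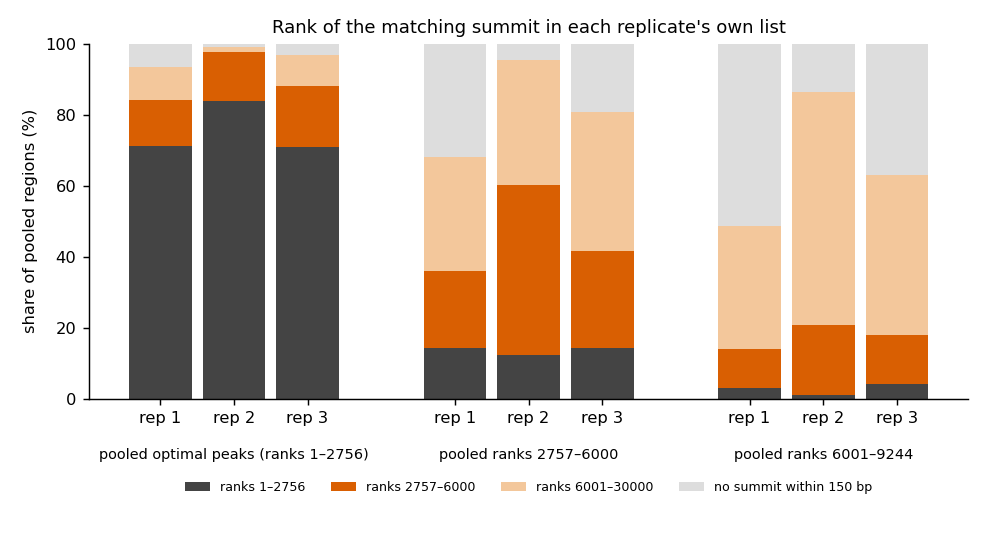
Stacked bars give, for each replicate, the share (%) of pooled regions whose matching summit within 150 bp fell above rank 2757, in ranks 2757 to 6000 or below rank 6000 of that replicate's own list, or was not found. For pooled ranks 2757 to 6000 the share not found was 32.1%, 4.65% and 19.3% in replicates 1, 2 and 3.

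Nearly 4 in 10 of the regions lay at gene starts, about as many as of the optimal peaks and more than of the regions below. Of the 3244 summits, 1290 (39.8%, exact binomial 95% interval 38.1 to 41.5%) were within 500 bp of an annotated start, against 13.6% of genome positions. The share was 40.7% among optimal peaks, with an odds ratio of 0.960 (95% interval 0.864 to 1.07, adjusted p = 0.666, Fisher's exact test, two-sided, Benjamini-Hochberg over 6 location classes). Among the next ranks it was 31.1%, with an odds ratio of 1.46 (1.32 to 1.62, adjusted p = 1.27e-12, same exact test). In the replicates' own lists, promoter shares at ranks 2757 to 6000 were 25.1%, 39.5% and 36.1% in replicates 1, 2 and 3, a mean of 33.6% ± 7.57 (SD, n = 3). Those of the next 3244 ranks were 20.6%, 33.0% and 30.02%, lower in 3 of 3 replicates, and those of the top ranks were 39.95%, 41.5% and 40.6%, higher in 3 of 3 and furthest apart in replicate 1. The pooled comparison with the optimal peaks depended on the replicates. Among regions supported without replicate 2 the ratio of shares was 0.865 (adjusted p = 0.00236, Fisher's exact test) and without replicate 3 it was 0.867 (adjusted p = 0.00123, Fisher's exact test). Regions are not replicates, so these p-values measure counting error over regions only.

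Promoter summits sat close to the start itself. Of the 1290, 609 (47.2%) were within 100 bp of it, against 39.9% of the optimal and 41.2% of the next promoter summits, and the median distance was 108 bp. For 337 of them (26.1%) starts on both strands lay within 500 bp.

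Coding exons were nearly free of summits, though less so than in the optimal list. They held 47 of the 3244 summits (1.45%), where 13.9% of the genome is coding exon outside promoters. The share was 0.581% (16 peaks) in the optimal list, an odds ratio of 2.52 (95% interval 1.40 to 4.77, adjusted p = 0.00528, Fisher's exact test), and 4.75% (154 regions) in the next ranks, an odds ratio of 0.295 (0.207 to 0.413, adjusted p = 4.26e-14, Fisher's exact test). In the replicates' own ranks 2757 to 6000 coding exons held 8.35%, 1.63% and 4.29% of summits, against 1.16%, 0.617% and 0.943% in their top ranks, so the share was higher in 3 of 3 and largest in replicate 1. Introns held 1136 summits (35.0%) and intergenic sequence 668 (20.6%). The intergenic share was lower than in the next ranks (24.4%, adjusted p = 0.000508, Fisher's exact test), as was the UTR share (1.70% against 2.59%, adjusted p = 0.0241, Fisher's exact test).

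The X chromosome held a share of the regions close to its share of the optimal peaks. On it lay 485 of the 3212 summits on the 5 large arms (15.1%), against 15.04% of optimal peaks, an odds ratio of 1.00 (95% interval 0.869 to 1.16, p = 0.971, Fisher's exact test, two-sided). Per base, X carried 0.825 times as many regions as the large autosomes (95% interval 0.747 to 0.908). The X shares in the replicates' own ranks 2757 to 6000 were 11.7%, 14.8% and 13.7% (mean 13.4% ± 1.55, SD, n = 3), against 15.4%, 14.5% and 12.9% in their top ranks, so the share was lower in replicate 1 and slightly higher in replicates 2 and 3. The small chromosome 4 held 32 of the regions, or 24.0 per Mb, against 17 optimal peaks (12.8 per Mb) and 41 of the next ranks (30.8 per Mb), a difference that was not tested.

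Many of the regions neighboured an optimal peak. An optimal summit lay within 1000 bp of 393 of them (12.1%) and within 300 bp of 150 (4.62%), where 3.78% and 1.21% of genome positions are that close. For the next ranks the shares were 10.3% and 2.99%. In the replicates' own lists, 8.26%, 12.8% and 13.3% of ranks 2757 to 6000 lay within 1000 bp of that replicate's top-ranked summits, against 6.10%, 10.4% and 9.83% of the next ranks, higher in 3 of 3. The median distance to an optimal summit was 6378 bp for the regions and 7214 bp for the next ranks.

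The Ac/Sc-Da E-box was found near the summits about 2 times as often as in their flanks. It lay within 100 bp of 475 of the 3244 summits (14.6%, exact 95% interval 13.4 to 15.9%) and in 7.52% of windows of the same width 1000 bp away, a ratio of 1.95 (adjusted p = 3.38e-19, exact McNemar test of the summit against the higher-coordinate flank, two-sided, Benjamini-Hochberg over 16 motifs). In the replicates' own ranks 2757 to 6000 the ratios were 1.60, 1.83 and 1.67 (mean 1.70 ± 0.117, SD, n = 3), above 1 in 3 of 3. The pooled ratio was 2.42 in the optimal peaks and 1.65 in the next ranks. Of the 475 regions, 434 held 1 site and 41 held 2. The nearest site was at a median of 37 bp from the summit, and 312 regions had one within 50 bp.

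**Figure D2:**
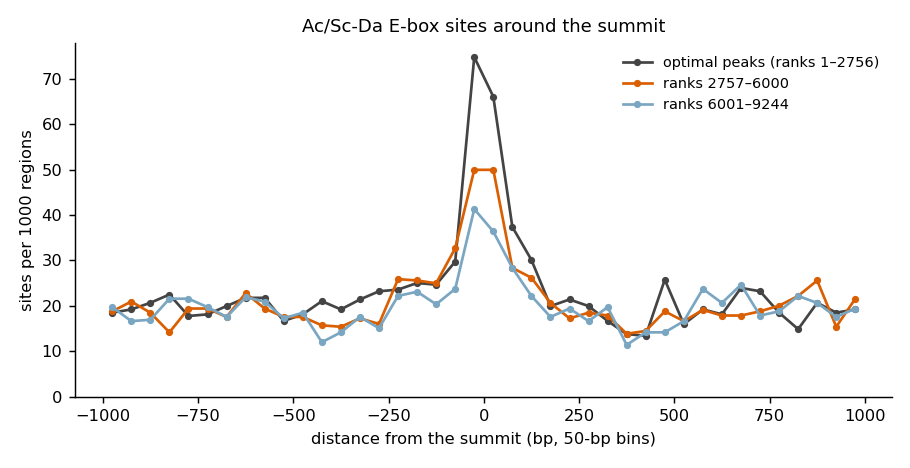
Lines give the number of Ac/Sc-Da E-box sites per 1000 regions in 50-bp bins of distance from the summit (bp), for the optimal peaks, ranks 2757 to 6000 and the next ranks. Ranks 2757 to 6000 reached 49.9 sites per 1000 regions in both central bins, between the 2 other sets.

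The E-box share lay between those of the ranks above and below. It was 17.9% in the optimal peaks, an odds ratio of 0.788 for the regions (95% interval 0.684 to 0.906, adjusted p = 0.0115, Fisher's exact test over 16 motifs). In the next ranks it was 11.4%, an odds ratio of 1.34 (1.15 to 1.55, adjusted p = 0.000559, Fisher's exact test). In the replicates' own lists the shares for the top ranks, ranks 2757 to 6000 and the next ranks were 12.4%, 12.2% and 10.4% in replicate 1, 18.9%, 13.3% and 11.7% in replicate 2, and 18.5%, 12.4% and 9.59% in replicate 3. The order was the same in 3 of 3, and the top ranks and ranks 2757 to 6000 were closest in replicate 1. The difference from the optimal peaks did not pass the threshold among regions at a q value of at most 0.01 (ratio of shares 0.857, adjusted p = 0.279, Fisher's exact test), nor among regions supported without replicate 1, 2 or 3 (ratios 0.812 to 0.835, adjusted p from 0.0668 to 0.0706, Fisher's exact test); the difference from the next ranks passed in all settings that could be run. Across 4 equal bins of rank within the set the share was 17.5%, 14.7%, 13.0% and 13.4%.

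**Figure D3:**
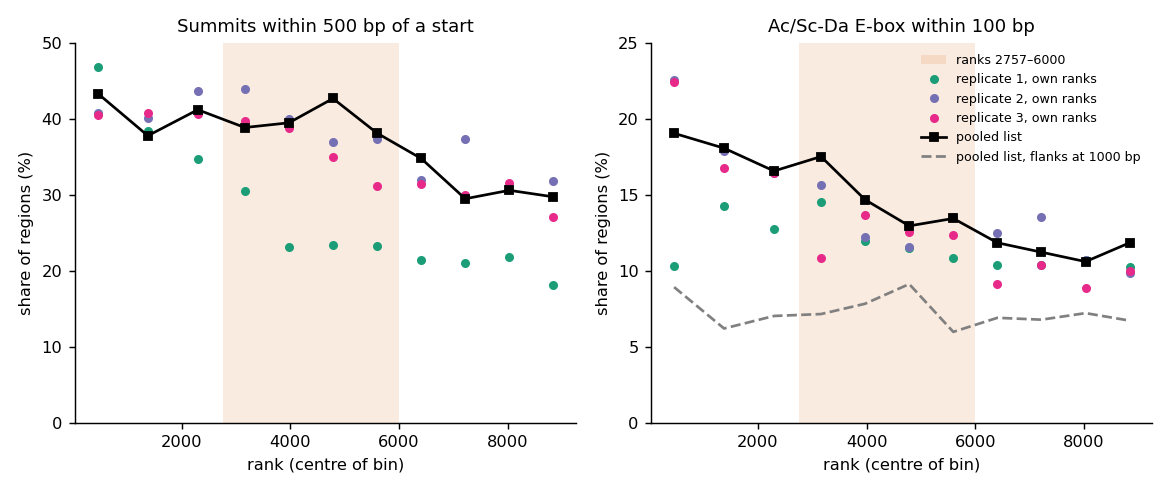
Points give, by rank (centre of bin), the share (%) of summits within 500 bp of a start (left) and with an Ac/Sc-Da E-box at most 100 bp away (right), for the pooled list (black line) and each replicate ranked by its own list; the dashed line is the pooled flanks and the shading marks ranks 2757 to 6000. In the shaded bins replicate 1 had promoter shares of 23.1 to 30.5%, below the other 2 replicates.

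Of the 16 motifs, 9 were above the flanks at the regions (56.2%) and 0 were below, in the exact McNemar test at an adjusted p of at most 0.05. By the same rule 7 were above and 0 below in the optimal peaks, and 10 above and 1 below in the next ranks. The core CAGCTG, which the Ac/Sc-Da E-box may contain, was at 17.5% of the regions (ratio 1.92). Its other core, CAGGTG, was at 11.0% (ratio 1.33). The core CATATG, known from other bHLH factors, was at 7.46% (ratio 1.23). It did not pass with a 50 bp window, against the lower-coordinate flank, or among regions supported without replicate 1 or 2 (adjusted p from 0.0576 to 0.232, exact McNemar test). The other 3 cores, CACGTG, then CATCTG, then CACATG, did not pass, with ratios of 0.995 to 1.11. The GAGA motif (spelled GAGAGAG, the site of the chromatin factor Trithorax-like) was at 7.18%, a ratio of 1.85 (adjusted p = 2.98e-06, exact McNemar test). Its ratios in the replicates' own lists were 1.14, 2.18 and 1.90, and it did not pass among regions supported without replicate 2 (1.53) or without replicate 3 (1.56), nor outside promoters (1.47). DRE was at 1.85% (ratio 2.50), the M1BP motif at 1.20% (ratio 3.25), core promoter motif 7 (CATCNCTA) at 2.53% (ratio 1.89) and the GATA site, spelled GATAAG, at 11.2% (ratio 1.16). DRE did not pass with a 50 bp window (adjusted p = 0.146, exact McNemar test). The M1BP motif did not pass with that window (adjusted p = 0.166, exact McNemar test) or without replicate 2 (adjusted p = 0.252, same exact test). Motif 7 did not pass at a q value of at most 0.01 or without any 1 of the replicates (adjusted p from 0.0667 to 0.280, exact McNemar test). GATA did not pass against the lower-coordinate flank (adjusted p = 0.231, exact McNemar test) and was at a ratio of 0.985 when only 50 bp around the summit were read. The site of Zelda (CAGGTAG), a pioneer factor of the early embryo, was at 2.25% (ratio 1.52, adjusted p = 0.0909, exact McNemar test). Its call depended on the flank, as it passed against the lower-coordinate flank (adjusted p = 0.0222, exact McNemar test) and with flanks 2000 bp away (ratio 1.64, adjusted p = 0.00263, same exact test). Su(H) (GTGGGAA), the DNA-binding factor of the Notch pathway, was at 2.62% (ratio 0.876, adjusted p = 0.743, exact McNemar test).

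Only the Ac/Sc-Da E-box differed from the optimal peaks among the 16 motifs (6.25% called). Against the next ranks, 3 of 16 differed (18.8% called), all higher at the regions. They were the Ac/Sc-Da E-box, its core CAGCTG (17.5% against 13.8%, adjusted p = 0.000559, Fisher's exact test) and GAGA (7.18% against 4.84%, odds ratio 1.52, 95% interval 1.23 to 1.89, adjusted p = 0.000559, Fisher's exact test). The GAGA difference did not pass without replicate 2 (ratio of shares 1.56, adjusted p = 0.0812, Fisher's exact test) or without replicate 3 (1.44, adjusted p = 0.131, Fisher's exact test). The ratio with all regions was 1.48. These 2 settings compared fewer regions, 1734 and 2083, with 900 and 1279 of the next ranks.

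**Figure D4:**
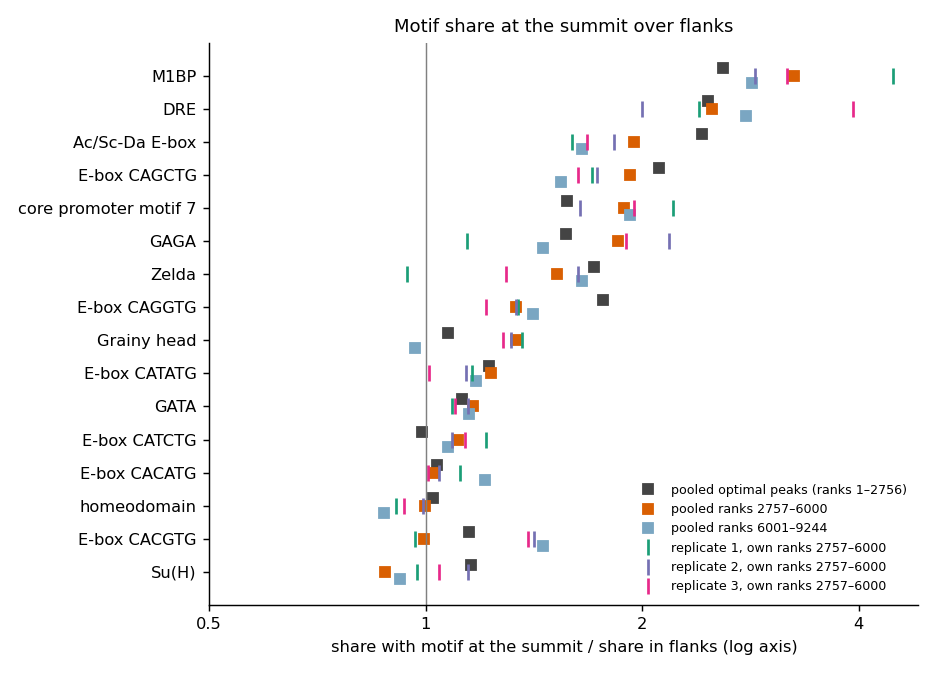
Squares give, for each of 16 motifs, the share of regions with the motif at most 100 bp from the summit over the flank share, averaged over both flanks (log axis) in the optimal peaks, ranks 2757 to 6000 and the next ranks; ticks give each replicate's own ranks 2757 to 6000. The M1BP motif, DRE and the Ac/Sc-Da E-box had ratios of 3.25, 2.50 and 1.95 at ranks 2757 to 6000.

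The ratios were also taken by location class. At the 1290 promoter summits the Ac/Sc-Da E-box had a ratio to its flanks of 1.44, at the 1136 intronic summits 2.34 and at the 668 intergenic summits 2.39. The replicates' own lists gave 1.498 ± 0.115, 1.89 ± 0.313 and 1.72 ± 0.0900 for these classes (SD, n = 3), with replicate 1 at 1.61, 1.58 and 1.63. DRE, the M1BP motif, motif 7 and GAGA had ratios of 5.56, 6.36, 3.28 and 2.49 at promoters. Outside promoters the ratios of DRE, the M1BP motif and motif 7 were 0.667, 0.615 and 0.902. These pooled an intronic class with ratios of 0.261, 0.400 and 0.571 and an intergenic class with ratios of 3.33, 2.00 and 1.18, which rested on 5, 1 and 10 regions. Differences between classes were not tested.

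Support in the replicates and E-box content are set side by side here as a description. The E-box share was 13.7% (exact 95% interval 10.1 to 18.1%) in regions found in the first 6000 of none of the replicates, 13.3% (11.6 to 15.1%) of 1, 16.3% (14.3 to 18.5%) of 2 and 17.2% (11.7 to 23.9%) of all 3. The flank shares of these groups were 7.516%, 7.465%, 7.286% and 9.816%. Regions found in all 3 replicates thus had the highest share in the flanks as well as at the summit. Among those found in 1 replicate, the share was 8.71% (33 of 379, 6.07 to 12.01%) where that was replicate 1, 14.8% (12.4 to 17.4%) for replicate 2 and 14.5% (11.2 to 18.5%) for replicate 3. The first of these was close to the 7.52% in the flanks of all the regions, and the flanks of that group were not taken separately. Base composition differed little between summit and flanks, with a mean GC content of 41.8% and 42.3%, and the optimal peaks had 39.8% at the summit.

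The regions reached many genes that the optimal list did not. A summit lay inside or within 2000 bp of 2943 of 13968 protein-coding genes (21.1%). Of the 11313 genes without an optimal summit there, 1881 (16.6%) had one of the regions, and 898 of these (47.7%) had it within 500 bp of an own start. Of the 2655 genes with an optimal summit, 1062 also had a region. For 550 regions (17.0%) there was no such gene. Longer genes were reached more often: among genes without an optimal summit the share was 8.93% in the shortest of 4 groups of genes by length and 27.8% in the longest. The count of 1881 was 810 without the extension beyond gene ends, and 1060 among regions supported without replicate 2. In the lists below, counts stand beside these shares, and no test of a list was made. Some genes stood in several lists, so the lists are not independent of each other.

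Among the 7 proneural genes and partners without an optimal peak, 1 was reached (14.3%), close to the 16.6% over all genes without one. That gene was ase (asense), the complex's neuroblast gene, with 2 regions at ranks 3881 and 4784. The first, chrX:463979-464368, had a signal of 97.8 and ranked 2296 in replicate 2, with no summit within 150 bp in replicates 1 and 3. The ac gene had 2 regions beside 2 optimal peaks, at ranks 5311 and 5337, which lay 1683 and 1227 bp outside the gene. The one at rank 5311, chrX:368153-368542, ranked 4861 and 3743 in replicates 2 and 3 and was not found in replicate 1. The gene emc, whose product blocks bHLH pairing, had 3 regions beside 2 optimal peaks, the best of them outside the gene and 289 bp from the start of hng3. The genes sc, l(1)sc, ato, amos, cato, da, hry and tap had none of the regions.

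Every one of the 18 genes listed for sensory organ precursors had an optimal peak or one of these regions, against 32.5% of all protein-coding genes. Of the 6 without an optimal peak, 6 were reached: scrt, ct, dpn, ttk, lz and CadN. The best region of scrt, which encodes a zinc finger repressor of non-neural genes, lay 224 bp from its start at chr3L:3983477-3983866 and ranked 2300 and 2497 in replicates 1 and 2. That of ct, the homeodomain gene of external sensory organs, was intronic at chrX:7651630-7652019 and ranked 2423, 3432 and 13079. That of ttk, a repressor of neural fate, lay 115 bp from a start at chr3R:31724916-31725305 and ranked 15685, 2112 and 1683. Replicates thus placed these regions very differently. Among genes that also had optimal peaks, siz had 4 regions and neur, the ubiquitin ligase that activates Delta, had 4, the best of them 91 bp from a start and ranked 2646, 5268 and 1081. The listed genes are long, with a median of 18890 bp. In the longest of 4 groups of genes by length, 33.8% had an optimal summit, and of those without one 27.8% had a region. The list was also chosen with earlier results of these data known.

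Genes of the Notch pathway and its inhibitors were mostly in the optimal list already. All 12 genes of the E(spl) complex had an optimal peak, and 7 of them had a region as well. Of the 4 Bearded family genes outside that complex, whose small proteins inhibit Neuralized, 2 lacked an optimal peak and both were reached. Ocho had 4 regions, the best at chr3L:14975984-14976373, 139 bp from the gene, with ranks of 3669, 3223 and 3680 that lay close together. BobA had 1 region 35 bp from its start. Neighbouring genes of this list shared regions, and the 4 genes had 7 regions between them. In the pathway itself 2 of 6 genes without an optimal peak were reached: kuz, the protease that cleaves Notch, with 4 regions, and O-fut1, which adds fucose to Notch. The best kuz region lay outside the gene, 195 bp from the start of B4, and the 1 O-fut1 region lay 28 bp from the start of eIF3m and 3367 bp from that of O-fut1. Delta, the ligand, had 3 regions and N, the receptor, 4 beside their optimal peaks. The best region of N lay in a coding exon at chrX:3163547-3163936 and ranked 4496, 6363 and 4494.

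Most listed neuroblast genes without an optimal peak were reached. Of the 6 without an optimal peak, 5 had a region: dpn, ase, esg, wor and SoxN. The share over all genes without an optimal peak was 16.6%. Of the 5, dpn also stood in the sensory organ list and ase in the proneural list. The Snail-family gene esg had 2, the best 154 bp from its start, ranked 2978 and 5219 in replicates 2 and 3 and not found in replicate 1. Its relative wor had 2, the best ranked 2479 in replicate 2 and 12432 in replicate 3. Genes of asymmetric division gave 1 of 4 (dlg1), temporal factors 1 of 4 (hb) and glial genes 2 of 4 (tll and repo). Both hb and tll also stood in the gap list below. Genes of differentiated neurons gave 2 of 12 (fne and ChAT), 16.7%, close to the share over all genes, and the ChAT region lay 301 bp from the start of lncRNA:CR46265.

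Patterning genes of the early embryo were also among those reached only here. Over all genes without an optimal peak the share was 16.6%, and in the longest of 4 groups by length it was 27.8%. The pair-rule list gave 4 of 6 (prd, odd, ftz and eve) and the gap and head gap list 4 of 8 (hb, hkb, cnc and tll). The 6 of the pair-rule list included the gap gene Kr, which was not reached and also stood in the gap and temporal lists. The dorsoventral list gave 3 of 6 (tld, sog and pnr) and the Hox list 2 of 2 (abd-A and Dfd). In that order, 3, 3, 2 and 0 of these genes had a region within 500 bp of an own start. Median gene lengths of the lists were 2833, 3373, 15718 and 30563 bp. The best region of odd lay 15 bp from its start at chr2L:3606576-3606965 and ranked 1395 and 5103 in replicates 2 and 3. That of sog, an inhibitor of the Dpp signal, was 1 of 4 inside or within 2000 bp of the gene. It ranked 3284 and 2023 in the same 2 replicates. That of Dfd ranked 23285, 9719 and 15014, low in every replicate. The segment polarity list gave 1 of 3 (gsb), the EGF receptor list 1 of 2 (Ras85D), the mesoderm list 2 of 6 (lbe and eya), the axon guidance list 1 of 3 (robo1) and the Polycomb list 2 of 7 (Su(z)2 and pho). The shares of the segment polarity, mesoderm, axon guidance and Polycomb lists, 28.6 to 33.3%, were near that of the longest genes.

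Housekeeping lists gave unlike shares. Of the 26 cytoplasmic ribosomal protein genes without an optimal peak, 20 were reached (76.9%), 17 of them within 500 bp of an own start, although these genes are short, with a median of 1333 bp. The best region of RpLP2 lay 1 bp from its start and ranked 1287 and 3373 in replicates 1 and 2, and that of RpL35 lay 8 bp from its start and ranked 1929, 3889 and 3886. Proteasome subunit genes gave 6 of 18, with 2 of the 6 at an own start.

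Gene lists of late or specialised tissues gave shares near that of all genes or below it. Muscle structural genes gave 2 of 13 (sls and Tm1) and photoreceptor genes 2 of 11 (Rh4 and ninaC), and the Rh4 region lay 70 bp from the start of sina, inside Rh4's extent. Odorant and gustatory receptor genes gave 5 of 114 (4.39%), with 0 of the 5 at an own start.

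**Figure D5:**
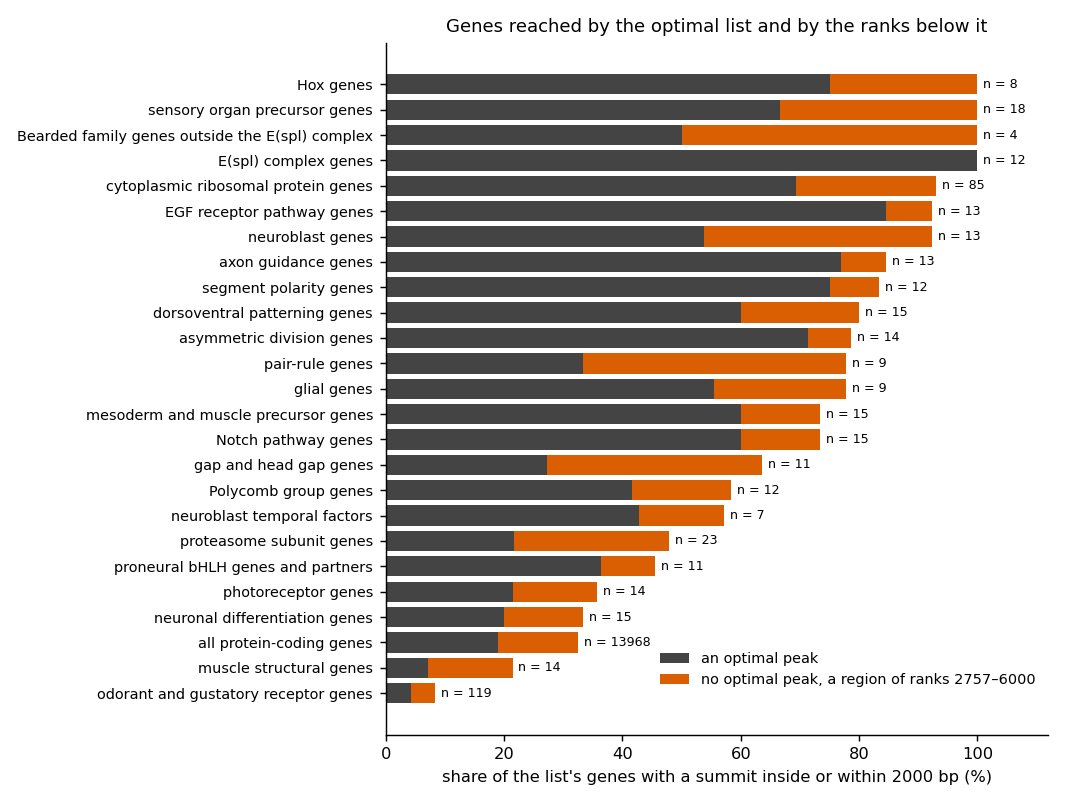
Bars give, for each of 24 gene lists and for all 13968 protein-coding genes, the share (%) of genes with an optimal peak inside or within 2000 bp (grey) and of genes with no optimal peak but a region of ranks 2757 to 6000 (orange). Ribosomal protein genes gained 20 of 85 and odorant and gustatory receptor genes 5 of 119.

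The genes with the most regions were long. The homeodomain gene hth, 132008 bp long, had 16 inside it or within 2000 bp, beside 8 optimal peaks. By the same count CG32816, which spans much of the achaete-scute complex, had 12 beside 13. The cell adhesion gene kirre had 11, Tet, pnt and rdx 10 each, and ed and jing 9 each. Per 10 kb of extended gene, pnt, the ETS factor of EGF receptor signalling, had 1.67 and kirre 0.276.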

How the data were processed

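Per the labels, chromatin from 3 replicates was sheared by sonication (200 to 800 bp) and immunoprecipitated. The deposited region lists give each region's position and summit, a signal value made by the authors, and the authors' −log10 of a q value. Per the deposited notes, regions were called against a control alignment, for each replicate and on all 3 pooled, before thresholding by the irreproducible discovery rate. Caller, version and threshold were not given in the sources used here. The dm3 lists were not used here.

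The members, lists, motifs and tests were chosen with earlier results of these data known. Every dm6 region lay within the Release 6 arm lengths. Gene models were Ensembl release 115 (13968 protein-coding genes), with 6 list symbols matched through synonyms. Summits were classed in order as promoter, coding exon, UTR, other exon, intron or intergenic. Motifs (16, both strands, overlapping matches merged into 1 site) were tested by exact McNemar and Fisher's exact tests in SciPy 1.17.1, Python 3.11.15, checked on simulated data. "Without replicate" settings kept regions with a summit within 150 bp in the full lists of both other replicates, since regions could not be called again. They kept 1734 to 2488 of the regions, 2496 to 2644 optimal peaks and 900 to 1691 of the next ranks. A call lost there may thus reflect fewer regions. Intervals are exact, at 95%, and cover counting error only.

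Named were all proneural list members with a region, per other list up to 4 genes without and 2 with an optimal peak by best rank, the genes nearest the 10 highest-ranked regions with an E-box and support in 3 replicates, the genes with the 5 highest numbers of regions, and those at the edges. Other list members are named after their values were seen. Of these, not all are described.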

Additional observations from a re-analysis of the deposited data

How the results depend on the processing

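The E-box ratio to flanks stayed past the threshold under all 9 alternatives (1.91 to 2.41), and the E-box and promoter shares stayed above those of the next 3244 ranks in every setting run. No alternative at a q value of at most 0.01 could be run against those ranks, since 0 of them reached it. The E-box share relative to the optimal peaks (0.819) lost its call at a q value of at most 0.01 (0.857, adjusted p = 0.279, Fisher's exact test) and without each replicate (0.812 to 0.835). The count of motifs that differed from the optimal peaks (1) was 4 with a 50 bp window, 0 at that q value and 0 without each replicate. The count of motifs above flanks (9) was 5 with a 50 bp window, 5 outside promoters and 5 to 7 without a replicate. The promoter share relative to the optimal peaks (0.976) was 1.05 within 200 bp of a start and 0.865 to 0.954 without a replicate, where it passed the threshold without replicates 2 and 3. The X share relative to them (1.00) was 0.988 to 1.03 without a replicate. The genes reached only below the optimal list (1881) were 810 without extension and 1060 to 1475 without a replicate. The mean share found in replicates was 74.3 to 88.0% without a replicate. Of single motifs, GATA had a ratio to flanks of 0.985 with a 50 bp window, and outside promoters DRE, the M1BP motif and motif 7 had 0.667, 0.615 and 0.902. Motif 7 outside promoters had 0.961 relative to the optimal peaks. The causes were not tested. Over single motifs and alternatives, 87 comparisons kept direction and side of the threshold, 17 lost the call, 5 gained it and 5 changed direction. No paired analysis was possible because there was 1 group only. Depth is unknown, and absence from a replicate's list means only that no summit was listed within the distance used: within 300 bp rather than 150 bp, 78.0%, 98.6% and 89.9% of the regions were found in replicates 1, 2 and 3.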
